A study of Mus musculus with 8 samples.

Results

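The genes described here encode the ligands and receptors of 4 axon guidance systems, followed in RNA sequencing of embryonic mouse hypothalamus with and without the forkhead transcription factor Foxd1. They were chosen by symbol alone: semaphorins of classes 3 to 7 with their plexin and neuropilin receptors, ephrins with their Eph receptors, Slits with their Robo receptors, and netrins with Dcc and the Unc5 receptors. The rule found 70 of 24717 gene symbols, of which 69 encode proteins and 1, Plxna4os1, is an antisense RNA of the plexin gene Plxna4. The 8 libraries carry the labels wild-type or Foxd1-mutant, with 2 libraries of each genotype on embryonic (E) day E17.5 and a single library of each on E12.5 and on E12.0. Each library came from pooled RNA, out of 8 Foxd1-null and 10 control embryos in all. The labels give neither the strain nor how the Foxd1 allele was made, and their wording on the controls leaves both genotypes possible, so genotype was taken from the name of each tissue source. That name also gives the stage E12.0, while the dissection protocol names the other stages alone, which leaves it unclear if these 2 libraries were collected apart from those of E12.5. The stage blocks below rest on that name. Without the stage block the E12 counts of guidance genes called were the same. Nothing says that the pools at E17.5 were separate litters, so p-values measure the spread between these libraries.

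Axons find their way by reading cues with receptors on the growth cone. Semaphorins act through plexins, and most of the secreted class 3 semaphorins need a neuropilin as well. Ephrins are held on the cell surface, the A class by a lipid anchor and the B class by a membrane span, and the Eph receptors that bind them are tyrosine kinases. Slits repel axons through Robo receptors, while netrin 1 attracts through Dcc and repels through Unc5 receptors. In the developing hypothalamus these systems steer the retinal axons that meet at the optic chiasm, the migration of neurons that make gonadotropin-releasing hormone, and the tracts that cross the floor of the diencephalon.

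Foxd1 was low in each mutant library. Levels are in FPKM, fragments scaled by transcript length and by library size. Here and below they are given wild-type first and mutant second for the single E12.0 and E12.5 pairs, and for the E17.5 set as both wild-type replicates against both mutant replicates. Foxd1 was at 24.95 and 2.77 FPKM in the E12.0 pair, 30.3 and 2.497 in the E12.5 pair, and 3.90 and 1.96 against 0.396 and 0.230 in the E17.5 set. All 13 hypothalamic markers were detected in every library, at 1.71 FPKM or more. The deposited values hold no counts, and depth was estimated from the steps between the lowest values. It came to 30.2 to 43.5 M fragments per library at E17.5 and, with less certainty, to 3.85 to 56.2 M at E12. The lowest of these estimates was that of the E12.0 wild-type library, and the highest that of the E12.5 wild-type library. In bulk tissue fewer cells of a type and less RNA per cell cannot be told apart.

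Nearly all of these genes were expressed. A mean of 1 FPKM was reached by 59 of the 69 listed at E12 and by 64 of 70 at E17.5. Below 1 FPKM in every library were the receptor genes Epha1 and Plxnb3, the netrin gene Ntn5 and the antisense RNA Plxna4os1. Ntn5 was listed at 0 in 3 of the 4 E12 libraries. Below 1 FPKM at E12 alone were Epha6, Sema3b, Sema3d, Sema3e, Slit3 and Unc5d, below it at E17.5 alone were Epha2 and Robo3, and Ntn3 was listed only in the E17.5 table.

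Summed over all 70 genes, guidance RNA stood at 1041 and 1039 against 1036 and 1043 FPKM in the E17.5 set. These 4 sums were nearly equal. The sums were 937 and 949 in the E12.5 pair and 824 and 676 in the E12.0 pair. The E12.0 mutant library was thus the lowest of the 8. Levels lower at E12.0 than at E12.5 were not particular to guidance genes. The lower mutant sum within the E12.0 pair, however, was not seen in the total over every gene. The total over every gene came to 414254 and 421991 FPKM for the E12.0 pair, and to 562844 and 506036 for the E12.5 pair. Going from E12.0 to E12.5, the median log2 difference of all genes was 0.37 between wild-type libraries and 0.35 between mutant ones. For guidance genes these medians were 0.25 and 0.45. Plexins and semaphorins held the largest sums at E17.5, with 218 ± 1.93 and 199 ± 0.114 FPKM in wild-type against 211 ± 3.70 and 191 ± 0.105 in mutant (mean ± SD, n = 2 libraries per genotype, as for every such value below). EphA receptors, neuropilins and Robo receptors had the higher sums in mutant, at 85.0 ± 9.11, 99.5 ± 8.20 and 74.4 ± 5.78 FPKM against 74.8 ± 3.13, 90.3 ± 1.22 and 68.1 ± 2.11 in wild-type, and in each of these families mutant replicate 2 held the highest sum. The other families differed by less, with ephrin-B ligands at 134 ± 5.49 and 132 ± 5.02, EphB receptors at 93.6 ± 2.11 and 87.6 ± 5.03, and netrin receptors at 49.2 ± 0.746 and 50.4 ± 1.10 FPKM, wild-type first.

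**Figure D1:**
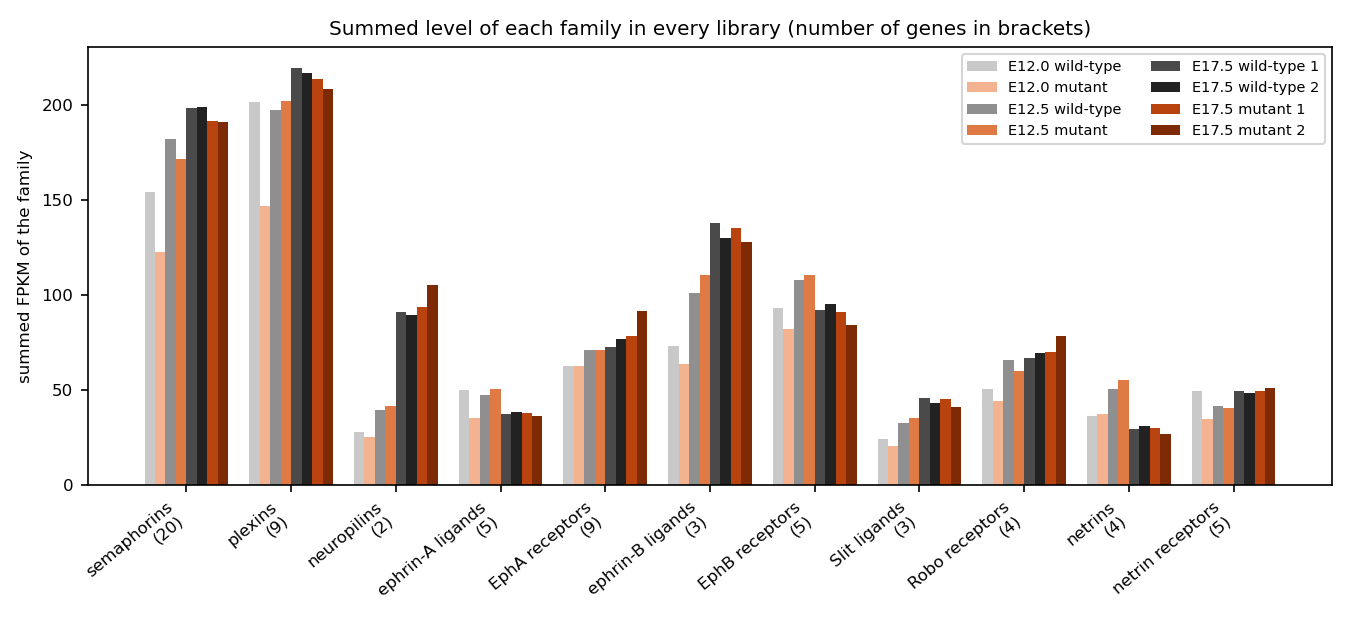
Summed FPKM of each guidance family (vertical axis) in each of the 8 libraries (bars), with the number of genes in brackets. Plexins and semaphorins are the tallest groups, neuropilins stand at 25.4 to 41.5 FPKM at E12 and 89.4 to 105 at E17.5, and the E12.0 mutant library is the lowest bar for plexins at 147 FPKM.

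Among the semaphorins, Sema6c and Sema4c, both membrane-bound, had the highest levels at E12. Sema6c was at 27.4 and 22.4 FPKM in the E12.0 pair, 37.7 and 36.9 in the E12.5 pair, and 17.8 and 17.3 against 15.8 and 14.1 in the E17.5 set. The mutant library lay below wild-type at each stage, with no overlap at E17.5. Sema4c was at 24.6 and 20.1 FPKM in the E12.0 pair, 25.3 and 24.2 in the E12.5 pair, and 14.4 and 14.9 against 14.3 and 13.5 in the E17.5 set. Mutant was again below wild-type at each stage, and at E17.5 the ratio of their means was 0.948, beside 0.852 for Sema6c. By E17.5 the highest semaphorins were Sema6b and Sema6d. Sema6b was at 6.30 and 6.76 FPKM in the E12.0 pair, 14.2 and 10.3 in the E12.5 pair, and 26.3 and 27.4 against 25.4 and 21.7 in the E17.5 set. Sema6d was at 5.02 and 4.13, then 8.02 and 7.18, then 22.5 and 22.7 against 22.9 and 24.9 FPKM. At E17.5 the genotypes did not overlap for either gene, with mutant below wild-type for Sema6b and above it for Sema6d. The other 16 semaphorins had means between 0.212 FPKM (Sema3d) and 21.2 (Sema5b) at E12 and between 1.34 (Sema3d) and 13.1 (Sema4a) at E17.5.

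Plexin receptors were led by Plxna1, a co-receptor for class 3 semaphorins. It was at 63.2 and 35.8 FPKM in the E12.0 pair, 45.5 and 47.7 in the E12.5 pair, and 51.7 and 50.8 against 48.4 and 44.1 in the E17.5 set. Only the E12.0 pair stood far apart. Plxnb2 was at 39.4 and 36.3, 45.6 and 48.0, and 40.1 and 36.9 against 37.8 and 38.0 FPKM, a narrow range in which the genotypes overlapped at E17.5. Plxnc1, the receptor of Sema7a, was second at E17.5. Its level was 11.7 and 8.54 FPKM in the E12.0 pair, 16.0 and 16.2 in the E12.5 pair, and 43.2 and 42.6 against 42.4 and 38.2 in the E17.5 set, where both mutant libraries were below both wild-type ones. Of the 5 other expressed plexins, Plxnb1 had the highest mean at E12 (40.2 FPKM) and Plxna4 the lowest (3.85), while at E17.5 Plxna3 was highest (26.1) and Plxnd1, a plexin known from vessels, lowest (5.15).

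The neuropilins, which bind class 3 semaphorins and also vascular endothelial growth factor, were the family with the largest ratio of E17.5 to E12. Nrp1 was at 10.2 and 10.1 FPKM in the E12.0 pair, 16.98 and 16.9 in the E12.5 pair, and 39.2 and 38.6 against 39.2 and 45.1 in the E17.5 set. Nrp2 was at 17.9 and 15.3, 22.4 and 24.5, and 51.9 and 50.8 against 54.5 and 60.2 FPKM. Each E17.5 library lay above each E12 library for both genes. The summed family was 2.68 times as high at E17.5 as at E12 in wild-type and 2.98 times in mutant.

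Ephrin-B ligands included the guidance gene of highest level at E17.5, Efnb3, whose product stops midline-crossing axons. It stood at 37.3 and 32.7 FPKM in the E12.0 pair, 57.7 and 60.8 in the E12.5 pair, and 99.4 and 97.9 against 98.1 and 84.6 in the E17.5 set, where mutant replicate 2 alone was low within overlapping genotypes. Efnb1 was at 24.1 and 22.5, 30.2 and 35.5, and 20.8 and 17.45 against 18.9 and 18.6 FPKM, with overlap at E17.5. Ephb2 and Ephb1, receptors of these ligands, led the EphB family. Ephb2 was at 53.3 and 48.3 FPKM in the E12.0 pair, 58.0 and 58.2 in the E12.5 pair, and 39.95 and 40.1 against 38.6 and 36.4 in the E17.5 set, both mutant libraries being below both wild-type ones. Ephb1, which makes retinal axons turn at the chiasm, was at 20.9 and 13.01, 20.1 and 22.1, and 25.04 and 27.1 against 25.4 and 23.4 FPKM, with overlap at E17.5. Ephb3, Ephb4 and Ephb6, the last of which lacks kinase activity, had means of 7.27 to 9.56 FPKM at E12 and 5.24 to 14.8 at E17.5.

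In the A class the leading ligand and the leading receptor were not the same genes at the early and late stages. Efna2 led the ephrin-A ligands at E12 with 23.8 and 18.4 FPKM in the E12.0 pair and 22.9 and 24.5 in the E12.5 pair, and stood at 11.99 and 12.2 against 11.4 and 11.8 in the E17.5 set. Efna4 was second at E12 and Efna3 first at E17.5, and their values stand with the stage comparison. Epha3 led the receptors at E12 with 31.2 and 33.8 FPKM in the E12.0 pair and 29.1 and 32.4 in the E12.5 pair, and was at 9.99 and 9.96 against 11.5 and 15.8 in the E17.5 set. Mutant libraries were above wild-type for Epha3 at all 3 stages, and mutant replicate 2 stood well above the other 3 libraries at E17.5. Epha4, a receptor for both ephrin classes, was at 10.1 and 10.1, 17.3 and 16.0, and 18.2 and 19.0 against 18.1 and 22.3 FPKM, with overlap at E17.5. Epha7 was at 8.40 and 8.02 FPKM in the E12.0 pair, 10.1 and 10.3 in the E12.5 pair, and 16.5 and 18.5 against 19.5 and 20.7 in the E17.5 set, without overlap there. Among the other 5 expressed EphA receptors Epha5 had the highest mean, at 7.25 FPKM at E12 and 16.7 at E17.5.

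Of the Slits, Slit1 was at 10.6 and 8.71 FPKM in the E12.0 pair, 15.3 and 14.2 in the E12.5 pair, and 27.7 and 26.7 against 28.0 and 24.3 in the E17.5 set. Slit2, the other main midline repellent, was at 12.95 and 11.2, 16.5 and 20.5, and 15.8 and 15.0 against 15.6 and 14.9 FPKM. The genotypes overlapped for both at E17.5. Robo1, a receptor for them, was at 33.1 and 30.6 FPKM in the E12.0 pair, 39.96 and 36.4 in the E12.5 pair, and 39.1 and 41.0 against 42.5 and 44.5 in the E17.5 set, below wild-type at both early stages and above it at the late one. Robo2 was at 7.55 and 6.31, 13.7 and 11.4, and 24.8 and 25.8 against 25.2 and 31.8 FPKM, again with mutant replicate 2 alone high at E17.5. Robo4, a receptor of vessels, had means of 1.20 FPKM at E12 and 1.94 at E17.5, and Slit3 of 0.703 and 1.81.

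For the netrins, Ntn1 was at 30.0 and 30.8 FPKM in the E12.0 pair, 42.4 and 46.6 in the E12.5 pair, and 21.3 and 23.2 against 21.5 and 19.3 in the E17.5 set. Ntn4, a netrin of basement membranes, was at 6.47 and 6.79, 8.08 and 8.84, and 4.23 and 3.91 against 4.19 and 4.10 FPKM. The genotypes overlapped for both at E17.5. The attractive receptor Dcc was at 29.3 and 18.7 FPKM in the E12.0 pair, 21.0 and 23.2 in the E12.5 pair, and 12.4 and 12.8 against 12.9 and 15.4 in the E17.5 set. Unc5b, a repulsive receptor also found on vessels, was at 9.21 and 8.36, 7.81 and 5.48, and 6.78 and 6.10 against 6.94 and 6.15 FPKM. Mutant was above wild-type for Dcc at E17.5 and below it at E12.0, while Unc5b overlapped at E17.5. Unc5a and Unc5c had means of 4.10 and 5.76 FPKM at E12 and 10.1 and 9.26 at E17.5, and Ntn3 one of 3.87 at E17.5.

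**Figure D2:**
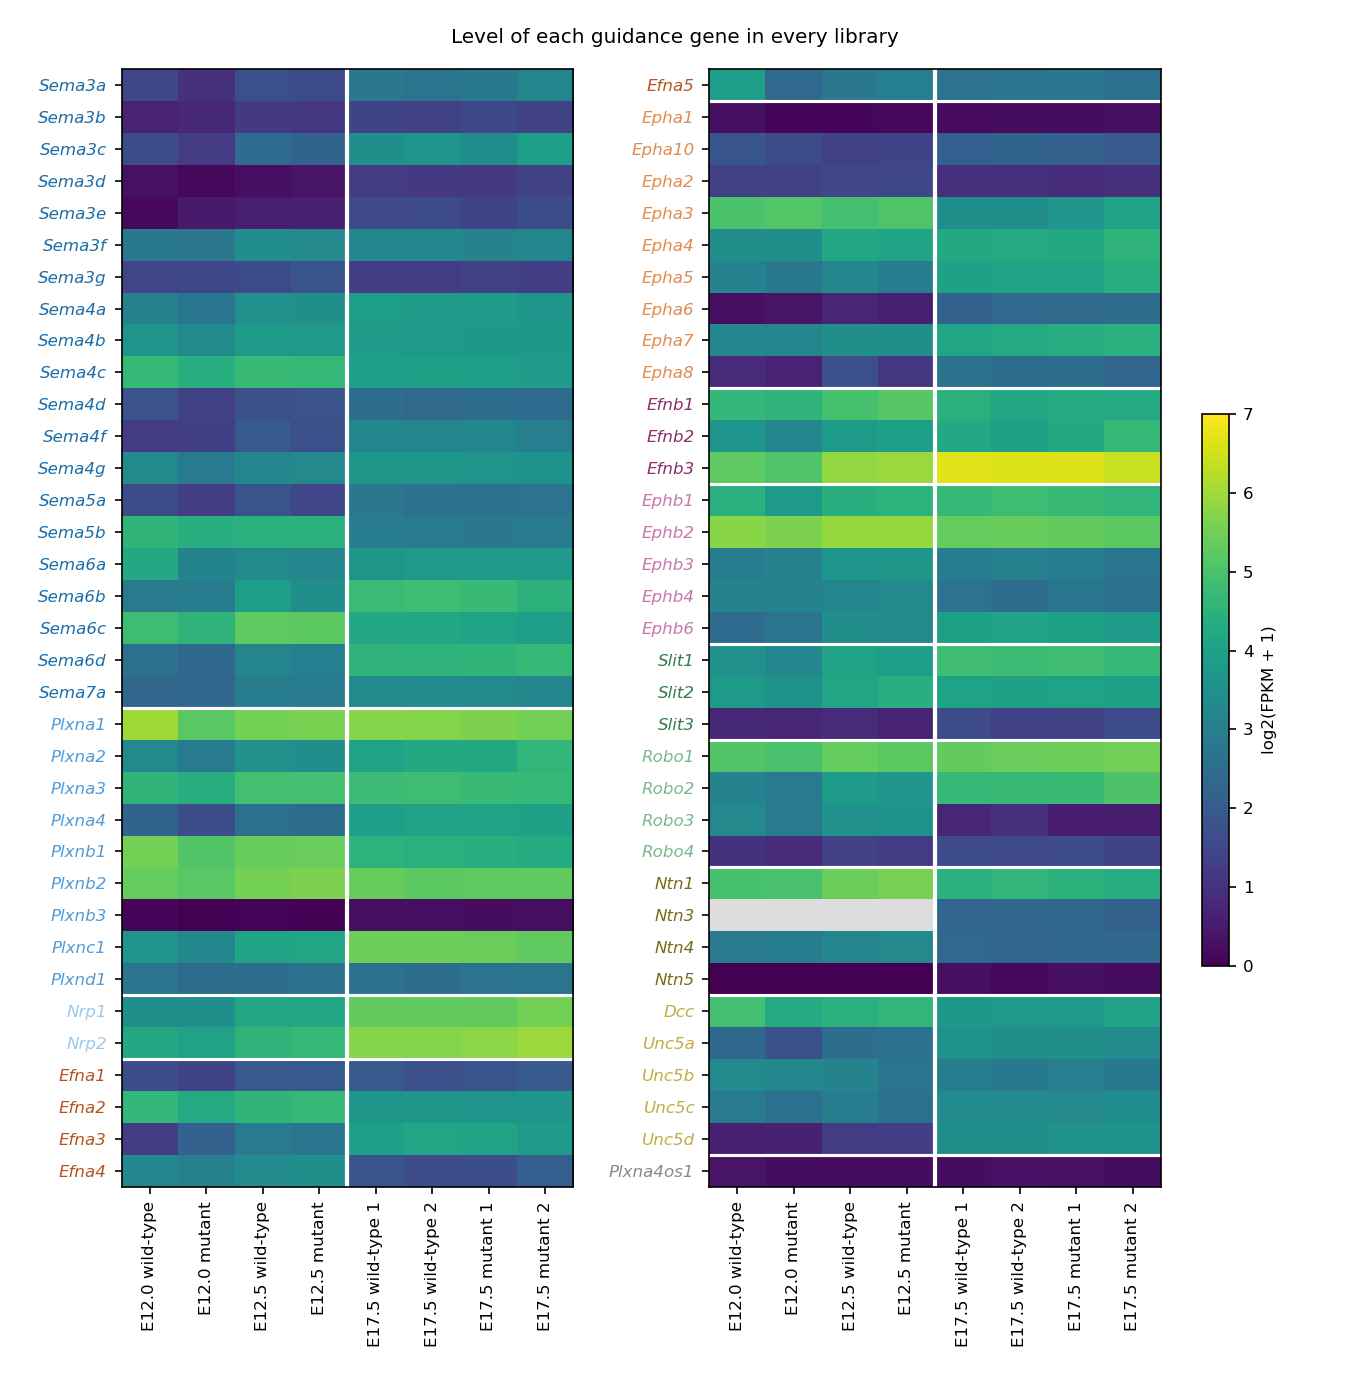
Level of each of the 70 genes as log2(FPKM + 1) (colour) in the 8 libraries (columns), grouped by family with E12 left and E17.5 right of the white line. Grey marks Ntn3, which is listed at E17.5 only. Efnb3 is the brightest row at E17.5 with up to 99.4 FPKM, and Robo3 is the row that is bright at E12 and dark at E17.5.

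Levels of these genes lay further apart between stages than between genotypes. The E12 and E17.5 tables were quantified separately, 1 row per gene against 1 row per RefSeq transcript, so levels between them were described and not tested. Of the 64 genes that averaged 1 FPKM or more over all 8 libraries, 25 were at least 2-fold higher in mean at E17.5 with each E17.5 library above each E12 library, against 22.7% of the 12519 genes measured in the same way. These 25 are 39.1% of the 64. The reverse held for 4 genes, or 6.25%, against 6.81% of all genes. The 25 included 8 of 19 semaphorins, 3 of 8 plexins, both neuropilins, 4 of 8 EphA receptors and 2 of 3 Slits. The median difference on the log2(FPKM + 1) scale was 0.40 for wild-type and 0.53 for mutant, beside 0.28 and 0.26 over all genes. Netrins were the family with the lowest ratio, 0.699 in wild-type and 0.615 in mutant, and 0.609 and 0.533 with Ntn3 left out. Summed FPKM of the 12 pan-neuronal markers was 1361 to 2333 at E12 and 3530 to 3824 at E17.5, that of the 10 proliferation markers 293 to 376 and 54.6 to 76.4, that of the 10 endothelial markers 41.0 to 71.1 and 107 to 127, and that of the 8 meningeal markers 8.38 to 10.97 and 138 to 250. Their part in the stage pattern was not tested.

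The largest stage differences were those of Robo3 and Unc5d. Robo3, which lets commissural axons approach the midline before they cross, was at 8.86 and 6.25 FPKM in the E12.0 pair, 10.6 and 10.99 in the E12.5 pair, and 0.689 and 0.908 against 0.447 and 0.477 in the E17.5 set. All E17.5 libraries were far below all E12 libraries, with a mean ratio of 0.0687. Unc5d, a repulsive netrin receptor that also binds FLRT proteins, was at 0.519 and 0.552 FPKM, then 1.37 and 1.44, then 10.3 and 10.2 against 10.8 and 10.8. It went the other way, with a mean ratio of 10.8. Next among the genes higher at E17.5 were Epha6 (mean ratio 9.62), Sema3e (5.14), Sema4f (3.95), Plxna4 (3.93) and Sema3c (3.92). Besides Robo3, the genes lower at E17.5 were Efna4 (0.285), Sema5b (0.301) and Epha3 (0.373).

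Efna3 and Efna4 are neighbouring protein-coding genes on chromosome 3, with 2 long noncoding RNA genes listed between them, and their levels went in opposite directions with stage. Efna3 was at 1.41 and 3.56 FPKM in the E12.0 pair, 6.42 and 5.60 in the E12.5 pair, and 14.5 and 16.7 against 16.0 and 13.4 in the E17.5 set. Efna4 was at 8.54 and 7.50, 9.37 and 10.2, and 2.64 and 2.10 against 2.15 and 3.26 FPKM. Efna4 was the higher of the pair in all E12 libraries and the lower in all E17.5 libraries, and the genotypes overlapped at E17.5 for both.

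The promoters of this pair are shown with those of Epha3 and Sema3c, as a further gene lower and a further gene higher at E17.5. Each is the 250 bases before the start of transcription in RefSeq (GRCm38.p6), 5′ to 3′ on the strand of the gene, and capitals mark the GC box GGGCGG or its reverse complement CCGCCC. The windows are chr3:89338029-89338278 on the minus strand for Efna4, chr3:89322940-89323189 on the minus strand for Efna3, chr16:63864176-63864425 on the minus strand for Epha3 and chr5:17574566-17574815 on the plus strand for Sema3c.
Efna4: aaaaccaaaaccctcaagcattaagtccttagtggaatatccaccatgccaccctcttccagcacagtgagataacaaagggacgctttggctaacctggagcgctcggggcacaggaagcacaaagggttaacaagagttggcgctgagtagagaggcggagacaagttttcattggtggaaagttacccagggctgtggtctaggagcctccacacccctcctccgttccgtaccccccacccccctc
Efna3: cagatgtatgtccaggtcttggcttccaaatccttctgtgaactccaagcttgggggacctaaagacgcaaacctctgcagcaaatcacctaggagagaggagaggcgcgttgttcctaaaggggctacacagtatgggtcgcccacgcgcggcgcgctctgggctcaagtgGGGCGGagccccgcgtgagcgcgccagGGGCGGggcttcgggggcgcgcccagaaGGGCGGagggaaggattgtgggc
Epha3: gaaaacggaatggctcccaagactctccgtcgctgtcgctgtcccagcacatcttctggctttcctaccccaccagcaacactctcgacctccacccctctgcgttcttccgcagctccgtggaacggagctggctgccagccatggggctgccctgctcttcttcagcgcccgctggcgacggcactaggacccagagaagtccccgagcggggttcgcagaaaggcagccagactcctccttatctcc
Sema3c: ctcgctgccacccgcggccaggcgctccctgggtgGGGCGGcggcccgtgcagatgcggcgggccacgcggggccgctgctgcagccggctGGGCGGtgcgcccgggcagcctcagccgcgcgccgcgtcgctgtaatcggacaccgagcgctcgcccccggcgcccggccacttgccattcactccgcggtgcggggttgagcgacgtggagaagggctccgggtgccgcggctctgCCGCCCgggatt
The windows of Efna3 and Sema3c each hold 3 GC boxes and 63.6% and 78.4% G and C, while those of Efna4 and Epha3 hold none and 54.4% and 62.8%. RefSeq promoters were found for 59 of the 70 genes, in 75 windows. The GC box, on either strand, was in 53 of the 75 (70.7%), against 32.7% of all 32851 windows of this length. It was in 21 of 29 windows of genes higher at E17.5, 1 of 4 of genes lower, 29 of 37 of the other genes compared between stages, and 2 of 5 of genes left out of that comparison. The forkhead sequence GTAAACA, searched on both strands, was in 0 of 75 against 3.17% of all windows. The shorter GTAAAC, which lies within it, was in 1, that of the endothelial receptor gene Robo4, against 6.92%.

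**Figure D3:**
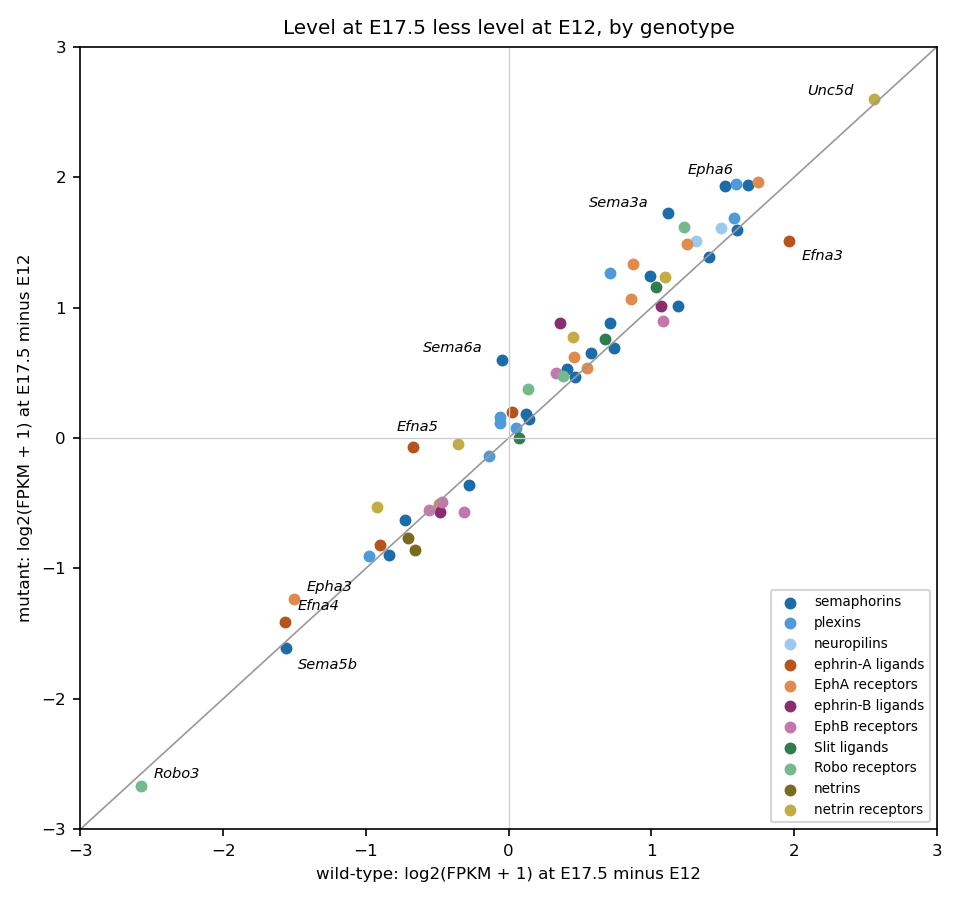
Difference of log2(FPKM + 1) between E17.5 and E12 in wild-type (horizontal axis) and in mutant (vertical axis) for 64 guidance genes (points, coloured by family), with the line of equal values. Points lie along the line from Robo3 at -2.58 and -2.67 to Unc5d at 2.56 and 2.60, while Sema6a (-0.05 and 0.60) and Efna5 (-0.67 and -0.07) lie above it and Efna3 (1.97 and 1.51) below it.

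At E17.5, with 2 libraries per genotype, levels in mutant and wild-type differed little. No guidance gene passed the threshold of 0.05 on the adjusted p of limma, out of 64 tested, where 0.00756% of the 13235 genes did. At an unadjusted p under 0.05 there were 3, against 5.7% of all genes, with 2 higher in mutant (2.18% of all genes) and 1 lower (3.52%), and each is an unadjusted result only. The genotype with the lower mean was at 0.8 times the other or more for 61 of the 64, and the ratio of mutant to wild-type ranged from 0.852 to 1.37. The 95% interval of the log2 difference lay within 1 on either side of 0 for all 64, with a median half-width of 0.19. Neither count was made over all genes. The median absolute log2 difference was 0.094 for the guidance genes, above the 0.070 over all genes. Values were higher in mutant for 27 and lower for 37, where 51% of all genes were higher, and the median log2 difference was -0.02, beside 0.00 over all genes.

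The 3 genes were Epha3, Epha7 and Sema6c, whose values in each library are given above. Epha3 was at 13.6 ± 3.05 FPKM in mutant and 9.97 ± 0.0167 in wild-type, a log2 difference of 0.40 with a standard error of 0.14 (limma, unadjusted p = 0.0311, adjusted p = 0.689). Epha7 was at 20.1 ± 0.870 and 17.49 ± 1.40 FPKM, a log2 difference of 0.19 with a standard error of 0.07 (limma, unadjusted p = 0.0405, adjusted p = 0.689). Both are receptors of ephrin-A ligands, and the transmembrane ligand Sema6c was on the other side, at 14.9 ± 1.146 and 17.54 ± 0.328 FPKM, or -0.22 with a standard error of 0.07 (limma, unadjusted p = 0.0208, adjusted p = 0.689). Without mutant replicate 2 the log2 differences were 0.18, 0.15 and -0.15, and with only the highest transcript row of each symbol the unadjusted p of limma was 0.287 for Epha7 and 0.135 for Sema6c. Fits without 1 library took the spread from the libraries of all stages, over 12442 to 12458 genes in place of 13235. With no library left out, the spread from all libraries already gave a count of 1. The counts that follow therefore cannot be put down to the missing library alone. The count of 3 was 0 without wild-type replicate 1 (1.06% of all genes), wild-type replicate 2 (0.57%) or mutant replicate 2 (0.61%), and 11 without mutant replicate 1 (6.46%).

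Both mutant libraries lay above both wild-type libraries for 14 of the 64, against 20.9% of all genes, and below for 16, against 22.2%. Above were Epha3, Epha6, Epha7, Nrp2, Robo1, Sema3a and Unc5d among others, and below were 9 semaphorins and 4 plexins, Sema6b, Sema4b and Plxnb1 among them. Robo3, with a mean under 1 FPKM, was not among the genes tested. With no filter on low values its log2 difference was -0.30 (limma, unadjusted p = 0.0121, adjusted p = 0.772). EphA receptors were higher in mutant for 5 of 7 (median 0.18) and both neuropilins were higher (0.11 and 0.15). EphB receptors were lower for 4 of 5 (median -0.09), semaphorins for 13 of 20 (-0.08) and Slits for 3 of 3 (-0.02).

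Mutant replicate 2 stood apart from the other 3 libraries at E17.5. It held the lowest value for 28 of the 64 genes and the highest for 22, against 36.4% and 36.8% of all genes. For 8 genes the mean of the other 3 libraries was 0.8 times the value of this one or less. No other library stood so high for any of the 64. On the low side, at most 0.8 times the mean of the other 3, were 2 genes in wild-type replicate 1 and 3 in wild-type replicate 2. There was 1 such gene in mutant replicate 1 and 0 in mutant replicate 2. These counts were not made over all genes, so the 8 genes are given as values only. They were Epha3 (1.51), Efnb2 (1.47), Efna4 (1.42), Sema3a (1.41), Sema3c (1.38), Plxna2 (1.35), Epha5 (1.27) and Robo2 (1.26), where the number is the ratio of its value to that mean. Efnb2, which encodes a ligand that turns retinal axons away at the chiasm, was at 17.8 and 14.8 against 18.1 and 24.9 FPKM. Summed FPKM of the 10 telencephalon markers was 43.0 and 42.8 against 46.8 and 102 in the E17.5 set, with none of them at 0 and with Neurod6, a gene of cortical neurons, at 8.48 and 11.1 against 8.59 and 33.7. All 10 telencephalon markers were higher in mutant (median 0.61), with 4 at an unadjusted p of limma under 0.05, against 2.18% of all genes. The 13 hypothalamus markers summed to 106 and 98.1 against 88.996 and 74.3 FPKM. Of these, 12 were lower in mutant and 1 higher (median -0.26), with 6 lower at such a p, against 3.52% of all genes. The 10 proliferation markers summed to 58.6 and 54.6 against 59.6 and 76.4 FPKM, and all 10 were higher in mutant (median 0.21). The 8 meningeal markers summed to 225 and 138 against 250 and 177 FPKM, with 7 of the 8 higher in mutant (median 0.46). Of these, 4 were higher at an unadjusted p of limma under 0.05, against 2.18% of all genes. Endothelial markers were higher for 9 of 10 (0.13). Oligodendrocyte lineage markers were lower for 7 of 8 (-0.17), with 2 lower at such a p, against 3.52%. The part of these markers in the values of the guidance genes was not tested.

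**Figure D4:**
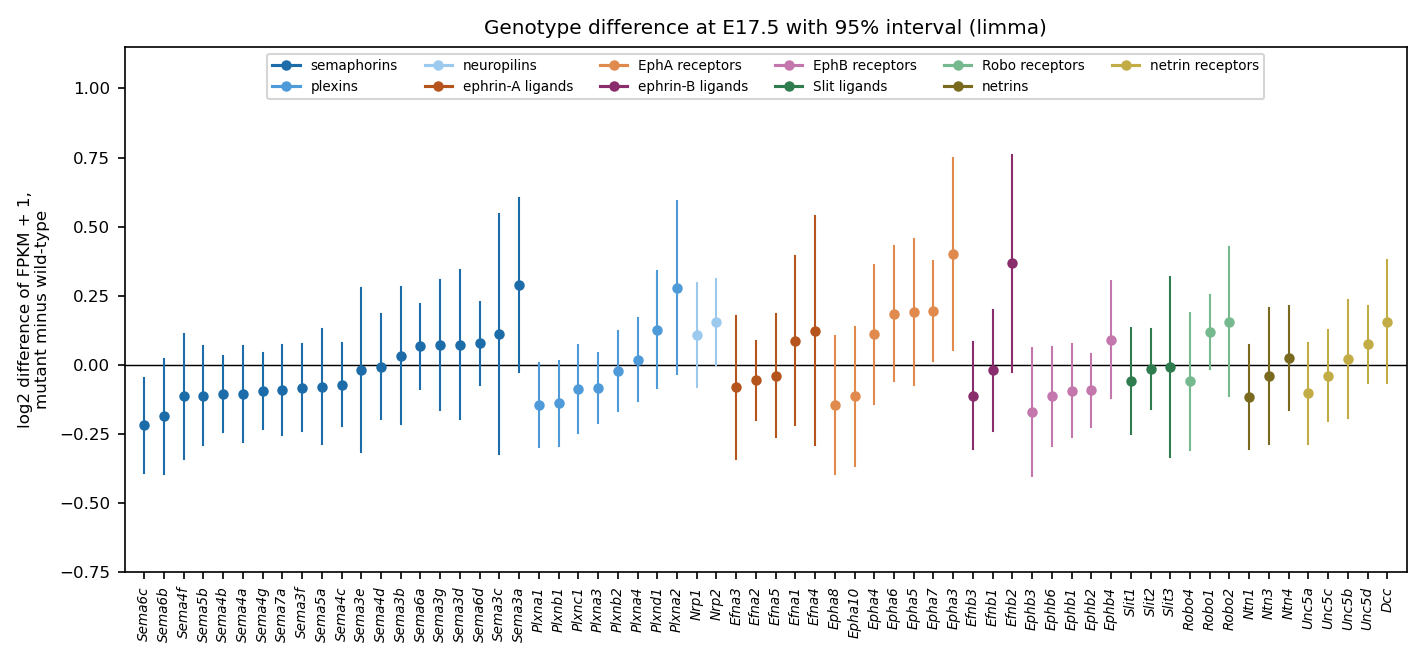
Log2 difference of FPKM + 1 between mutant and wild-type at E17.5 (vertical axis) for the 64 guidance genes tested (points, grouped and coloured by family), with 95% intervals from limma (lines). Points lie between -0.22 (Sema6c) and 0.40 (Epha3), and the intervals of all but Epha3, Epha7 and Sema6c cross 0.

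At the early stages mutant values were more often the lower ones, mostly at E12.0. With stage as a block over 4 libraries, no guidance gene of 59 tested passed the adjusted threshold of limma, where 0.0335% of 11952 genes did. None had an unadjusted p under 0.05, against 1.41%. Without replicates at either early stage, the error of this fit came from how far the E12.0 and E12.5 differences disagreed. A difference present at a single early stage therefore raises that error. The estimate was below 0 for 48 of the 59 and above it for 11, while 52.2% of all genes were above. The median log2 difference was -0.15, beside 0.01 over all genes, and the 95% interval of a gene had a median half-width of 0.40. All 8 plexins, all 4 Robo receptors, all 4 netrin receptors and 16 of 17 semaphorins had lower estimates in mutant, counts that also held after quantile normalization and median-ratio scaling. The plexin and netrin receptor counts came from the E12.0 pair, where 8 of 8 and 4 of 4 were lower (medians -0.43 and -0.46), while in the E12.5 pair 2 of 8 and 2 of 4 were (0.02 and -0.14). Semaphorins were lower for 13 of 17 in each pair, with medians of -0.28 and -0.08. Both neuropilins were lower too, but 1 of the 2 was higher after quantile normalization. The lowest p was that of Unc5c, a repulsive netrin receptor, at 6.33 and 4.87 FPKM in the E12.0 pair and 6.86 and 4.97 in the E12.5 pair (log2 difference -0.36, limma unadjusted p = 0.0546, adjusted p = 0.976). Marker lists were unevenly placed as well. Thalamic and prethalamic markers had lower estimates in mutant for all 7 tested (median -0.54). Telencephalon markers did for 8 of 9 (-0.13) and hypothalamus markers for 10 of 13 (-0.14). Neural progenitor markers had higher estimates for 6 of 9 (0.05). The estimate was below 0 for 11 of the 12 pan-neuronal markers, with a median of -0.15, the same as that of the guidance genes, and their sum was 1379 and 1361 FPKM in the E12.0 pair and 2333 and 2122 in the E12.5 pair. It was above 0 for all 10 proliferation markers, or 9 after median-ratio scaling, with a median of 0.21 and sums of 325 and 376, then 293 and 337 FPKM. None of the pan-neuronal or proliferation markers was at 0 in any library. The part of all these lists in the values of the guidance genes was not tested.

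The early stages are first described singly, with 1 library per genotype and no test. At E12.0 the mutant was lower for 44 of 57 genes of at least 1 FPKM, against 47.7% of all genes, with a median log2 difference of -0.23 beside 0.02. At E12.5 it was lower for 28 of 61, against 48.7%, with a median of 0.02 beside 0.00. The E12.0 mutant library held the lowest of the 4 E12 values for 44 of 59 genes, against 42.8% of all. Of the 57 genes measured at both stages 19 were lower in mutant at both, against 21.8%, 7 were higher at both, against 26.1%, and 31 differed in direction. None was 1.5-fold lower at both or 1.5-fold higher at both, against 0.0954% of all genes each.

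On FPKM + 1, Efna5 and Sema6a were the genes past 2-fold at E12.0, both lower in mutant, against 1.93% of all genes. Efna5, an ephrin-A ligand that sets boundaries in the brain, was at 14.3 and 4.28 FPKM in the E12.0 pair, 5.85 and 7.17 in the E12.5 pair, and 5.40 and 5.45 against 5.70 and 4.83 in the E17.5 set. The E12.0 wild-type library, the one of lowest estimated depth, alone was high. Sema6a, a membrane semaphorin that binds plexins A2 and A4, was at 17.7 and 7.86, 9.07 and 8.51, and 12.1 and 12.46 against 13.4 and 12.46 FPKM, and here too the E12.0 wild-type library was the highest of all. Their log2 differences on FPKM + 1 at E12.0 were -1.53 and -1.08. On that scale no guidance gene was 2-fold higher in mutant at E12.0, against 0.671%, although the plain FPKM ratio of Efna3 was 2.52, and its log2 difference 0.92, so that it counted as higher with a pseudocount of 0.1. At E12.5 none was past 2-fold in either direction, against 0.173% higher and 0.543% lower. The 13 hypothalamus markers summed to 262 and 174 FPKM in the E12.0 pair and to 241 and 257 in the E12.5 pair, the telencephalon markers to 74.3 and 50.8, then 44.8 and 51.1, and the thalamic and prethalamic markers to 118 and 103, then 129 and 89.8. Their part in these differences was not tested.

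Leaving out either E12.5 library left the E12 estimate to the E12.0 pair, with the spread taken from the E17.5 replicates on the assumption that single libraries vary as those do. Then 13 of 64 guidance genes (20.3%) passed the adjusted threshold, a share near that of all genes, which was 19.2% without the wild-type library and 18.1% without the mutant one. Of the 13, 12 were lower, against 10.9% and 10.3% of all genes, led by Efna5, Sema6a and Plxna1, and Efna3 was higher. Leaving out either E12.0 library gave none, with 6 of 64 genes at an unadjusted p under 0.05, against 7.08% of all genes without the wild-type library and 7.11% without the mutant one.

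**Figure D5:**
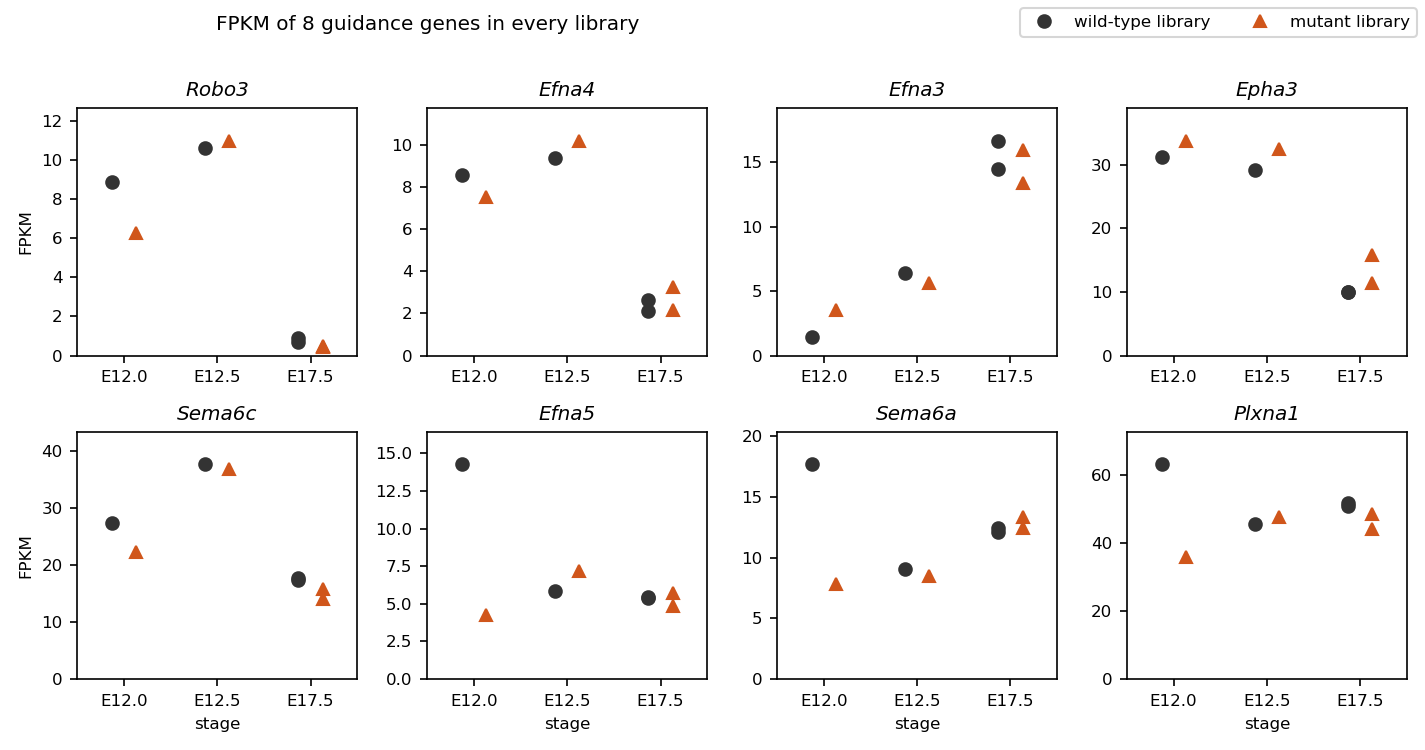
FPKM (vertical axes, from 0) of 8 guidance genes in every library by stage (horizontal axes), with wild-type as circles and mutant as triangles. Robo3, Efna4 and Epha3 are low at E17.5 and Efna3 high, while Efna5, Sema6a and Plxna1 have 1 high wild-type point at E12.0 (14.3, 17.7 and 63.2 FPKM).

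Over all 8 libraries with stage as a block, no guidance gene of 64 passed the adjusted threshold of limma, and neither did any of the 12519 genes (0%). At an unadjusted p under 0.05 there were 6, against 5.55% of all genes, with 1 higher (2.44%) and 5 lower (3.11%). Two-sided limma gave Sema6c a log2 difference of -0.19 with a standard error of 0.06 (unadjusted p = 0.0170) and Epha3 one of 0.26 with 0.10 (unadjusted p = 0.0406), each with an adjusted p of 0.749. These were the genes of the 6 whose genotypes were apart in the same direction at each stage. The others were Robo3 (-0.25), Sema5a (-0.21), Epha8 (-0.27) and Unc5c (-0.20), all lower. Estimates were lower in mutant for 44 of the 64 and higher for 20, with 50.7% of all genes higher. The 12 pan-neuronal markers all had lower estimates (median -0.07), or 10 of them after quantile normalization. The 10 proliferation markers all had higher ones (median 0.20), 6 of them at an unadjusted p of limma under 0.05, and the part of either list was not tested. Without wild-type replicate 1 of E17.5 the count of 6 was 2, against 3.59% of all genes.

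The genotype difference itself was compared between E17.5 and E12 as an interaction over the 8 libraries. No guidance gene passed the adjusted threshold of limma, against 0.032% of all genes, and 6 had an unadjusted p under 0.05, against 3.95%. In all 6 the difference between mutant and wild-type was more positive at E17.5, against 1.74% of all genes in that direction and 2.2% in the other. They were Epha5 (0.47), Unc5c (0.32), Sema3a (0.60), Plxna2 (0.55), Robo1 (0.24) and Sema6d (0.26), each with a limma adjusted p of 0.749. Sema3a, a secreted repellent, was at 1.88 and 1.004 FPKM in the E12.0 pair, 2.25 and 2.02 in the E12.5 pair, and 5.79 and 5.52 against 6.16 and 8.21 in the E17.5 set. Plxna2, a receptor of it, was at 9.28 and 6.54, 10.6 and 9.83, and 15.8 and 18.0 against 18.2 and 23.5 FPKM. For both, mutant was below wild-type at each early stage and above it in both E17.5 libraries. Among the 12 pan-neuronal markers 11 were also more positive at E17.5, with a median of 0.15, and their part was not tested. Without mutant replicate 2 at E17.5 the number of such guidance genes was 1 (1.76% of all genes), without mutant replicate 1 it was 11 (4.8%), and without wild-type replicates 1 and 2 it was 0 (1.49%) and 2 (1.25%). Without the wild-type and mutant E12.5 libraries it was 19 and 18 of 64, against 33.4% and 33.2% of all genes. In those fits 7 and 4 guidance genes passed the adjusted threshold, or 10.9% and 6.25%, against 11.7% and 9.65% of all genes.

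The E17.5 table lists 115 transcripts of these genes, with several for 21 of them, so the share of each transcript in its gene could be read there. Of the 43 transcripts of at least 1 FPKM from such genes, 1 had a mean share at least 5 percentage points higher in mutant with no overlap of libraries, against 7.61% of all transcripts, and 3 had one as much lower, against 8.02%. The 4 were singled out after their values were seen. For Sema4a, a membrane semaphorin, transcript NM_001163491 made up 17.2% and 17.1% of the gene in wild-type and 26.3% and 43.4% in mutant, while NM_001163490 made up 69.6% and 73.6% against 63.6% and 49.2%. The other pair were NM_010144 of Ephb4, at 97.05% and 97.1% against 95.6% and 84.1%, and NM_199241 of Sema6d, at 12.9% and 11.6% against 7.74% and 5.02%. Mutant replicate 2 was the farthest from wild-type in all 4.

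Genes that act beside or below these receptors, in both lists that follow, had a median log2 difference of 0.01 at E17.5. Of 53 effectors that pass guidance signals to the cytoskeleton, such as collapsin response mediators, small GTPases and their exchange factors, none passed the adjusted threshold of limma in any of the 4 comparisons. At E17.5 an unadjusted p under 0.05 was reached by 2 higher, Chn2 (log2 difference 0.18) and Rhoa (0.12), and 2 lower, Dpysl4 (-0.20) and Vav3 (-0.18), beside 2.18% and 3.52% of all genes, and the median was 0.01. Of 31 further cues, receptors and co-receptors none passed the adjusted threshold either. Among them Flrt3 (0.25), Flrt2 (0.16) and Adam10 (0.14) were higher and Rgma (-0.19) and Rgmb (-0.15) lower at an unadjusted p under 0.05 at E17.5, or 5 of 31 against 5.7% of all genes, with a median of 0.01. Flrt2 and Flrt3 encode ligands of Unc5 receptors, and Adam10 a protease that cleaves ephrins. At E12 the effectors were lower in mutant for 33 of 51, with a median of -0.03, where 52.2% of all genes were higher. The further cues were lower there for 26 of 29, with a median of -0.13 beside -0.15 for the pan-neuronal markers. Those at an unadjusted p under 0.05, against 1.41% of all genes, were Lingo1 (-0.59), part of the receptor for myelin inhibitors, and Draxin (-0.39), a secreted ligand of Dcc.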

How the data were processed

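The authors deposited FPKM values, made with TopHat and Cufflinks on mouse build mm9 per the submitters' processing notes. Versions are not given in the sources used here. Per the labels' protocols, libraries were paired-end with 100 cycles on a HiSeq 2500. Rows sharing a symbol were summed, and 8 rows without a symbol at E12 (at most 0.036% of FPKM) were left out. Values were taken as log2(FPKM + 1), which understates differences of low genes, and genes with a mean of 1 FPKM or more were tested with limma (trend of variance on mean, two-sided, Benjamini-Hochberg adjustment over all genes, threshold 0.05). The 4 comparisons were genotype at E17.5, at E12 and over all stages (both blocked by stage), and the interaction of genotype with E17.5 against E12. FPKM without counts allowed no count model. Depth was estimated from values of up to 5 fragments, of which 78.8% to 80.7% lay within 0.1 of a whole number at E17.5 and 31.0% to 41.0% at E12, so it is uncertain at E12 and whole reads were not recovered. The scripts were tested on simulated data.

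The members and lists were chosen with earlier results of these data known. Genes were named by a rule: those past the adjusted threshold, those at an unadjusted p under 0.05 with genotypes apart in each stage used, the 2 highest of each family at each stage, and those past 2-fold at a single early stage. Further genes were named after their values were seen. Promoters came from RefSeq (GRCm38.p6) and were matched by symbol. Alternatives changed the pseudocount, filter, scaling, trend, row joining, blocks and libraries. The software was limma 3.58.1 in R 4.3.3, with pandas 2.3.3, numpy 2.4.6 and matplotlib 3.10.9 in Python 3.11.15.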

Additional observations from a re-analysis of the deposited data

How the results depend on the processing

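No alternative with all libraries of a comparison gave a guidance gene past the adjusted threshold of limma. The counts at an unadjusted p under 0.05 moved. At E17.5 the count of 3 was 8 with a replicate block, 1 with the spread from all libraries, and between 0 and 11 without 1 library. The E17.5 fits without 1 library also took the spread from the libraries of all stages, so their counts mix both changes. Same-numbered libraries had a correlation of deviations of 0.028 over all genes and -0.086 over the guidance genes. These values cannot settle if same-numbered libraries shared a litter or a day, since a pairing may touch a part of the genes only. At E12 the count of 0 was 1 with a pseudocount of 0.1, 1 with no trend, 8 with the spread from all libraries, between 6 and 23 without 1 library, and 6 without both E12.0 libraries, an alternative chosen after seeing the data. The count past the adjusted threshold at E12 was between 0 and 13 without 1 library. Over all stages the count of 6 was between 2 and 5 without 1 library, with 2 when wild-type replicate 1 of E17.5 was left out. For the difference between E17.5 and E12 the count of 6 was between 0 and 19, and that past the adjusted threshold between 0 and 7. The 2-fold count at E12.0 was 1 in place of 2 with a pseudocount of 5, and 3 with one of 0.1, where Efna3 was counted as higher. The log2 values of the genes at an unadjusted p under 0.05 at E17.5, over all stages or for the difference kept their sign in every alternative run. The single early stages were described without a test of their own, and tested only where a library of the other early stage was left out, on the assumption that single libraries vary as the E17.5 replicates do. The uncertain depth at E12 gave no limit for values near 0.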
